A study of Mus musculus with 12 samples.

Results

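The comparison set siRNA against BRM directly beside siRNA against BRG1 in C2C12 cells at 18 h of differentiation. It was defined by the sample labels, as the BRM arrays of replicates 1 and 2 against the BRG1 arrays of the same numbers, and it takes 4 of the 12 arrays of the series. C2C12 is an established line of mouse myoblasts, the mononuclear precursors that leave the cell cycle and fuse into multinucleate myotubes once serum is withdrawn. Both groups were transfected at 100 nM with the Dharmafect3 reagent in growth medium with 20% fetal serum, changed to medium with 2% horse serum and ITS, and collected 18 h later. The groups share everything but the siRNA (siBRM or siBRG1), and a scrambled siRNA (siSCR) at the same time serves as a reference beside the comparison. An siRNA lowers a transcript and does not remove the gene. Separate cultures are not stated for the replicates, so p-values measure the spread between these arrays, which may be technical.

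BRM and BRG1, encoded by Smarca2 and Smarca4, are the alternative ATPases of the SWI/SNF (BAF) chromatin remodelling complexes. A complex holds either of them, and the ATPase uses the energy of ATP to slide or evict nucleosomes so that transcription factors can reach DNA. In skeletal muscle the complex is known to be recruited by MyoD to muscle genes through the subunit BAF60C, encoded by Smarcd3.

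RNA was measured on Illumina bead arrays with 45281 probes, and a level below is a normalized log2 intensity of a gene's brightest tested probe. A difference is siBRM minus siBRG1 on the log2 scale within a replicate, so a positive value means more RNA with siBRM. Replicate 1 lies on one BeadChip and replicate 2 on another, and the raw signal was lower in replicate 1, where the mean over probes was 545.9 for siBRM and 513 for siBRG1 against 1603 and 1349 in replicate 2. The share of probes above background, at a detection p under 0.05, was 29.81% and 27.33% in replicate 1 and 38.96% and 38.17% in replicate 2. On each BeadChip the siBRM array sits before the siBRG1 array, so the siRNA and the position cannot be told apart. Of the 10847 genes tested, 6729 were above background on all 4 arrays.

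Each target was lower with the siRNA made against it, in both replicates. Smarca2 had levels of 9.72 and 7.67 with siBRM in replicates 1 and 2, 10.42 and 9.46 with siBRG1, and 10.44 and 9.30 with siSCR. Within a replicate the siBRM array was the lowest of the set, while the ranges of the groups overlapped across replicates. The difference for Smarca2 was -1.24 ± 0.31 (n = 2 arrays a group), with -0.69 and -1.79 in the replicates and limma's adjusted p = 0.638. Here and below the value after ± is limma's moderated SE. Its spread is estimated over all 12 arrays and is not that of the 2 replicate differences. Smarca2 has a dimmer tested probe of the opposite sign, which was at background on 3 of the 4 arrays, and the mean of the probes differed by -0.40. Smarca4 had levels of 7.84 and 8.98 with siBRM, 6.09 and 8.04 with siBRG1, and 7.46 and 9.09 with siSCR. The siBRG1 array was the lowest within each replicate, and in replicate 1 it was at background, so the ratio there is a bound of at least 1.40-fold. The fitted difference for Smarca4 was 1.34 ± 0.32, with 1.75 and 0.94 in the replicates and adjusted p = 0.616. Neither target passed the test across all genes.

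**Figure D1:**
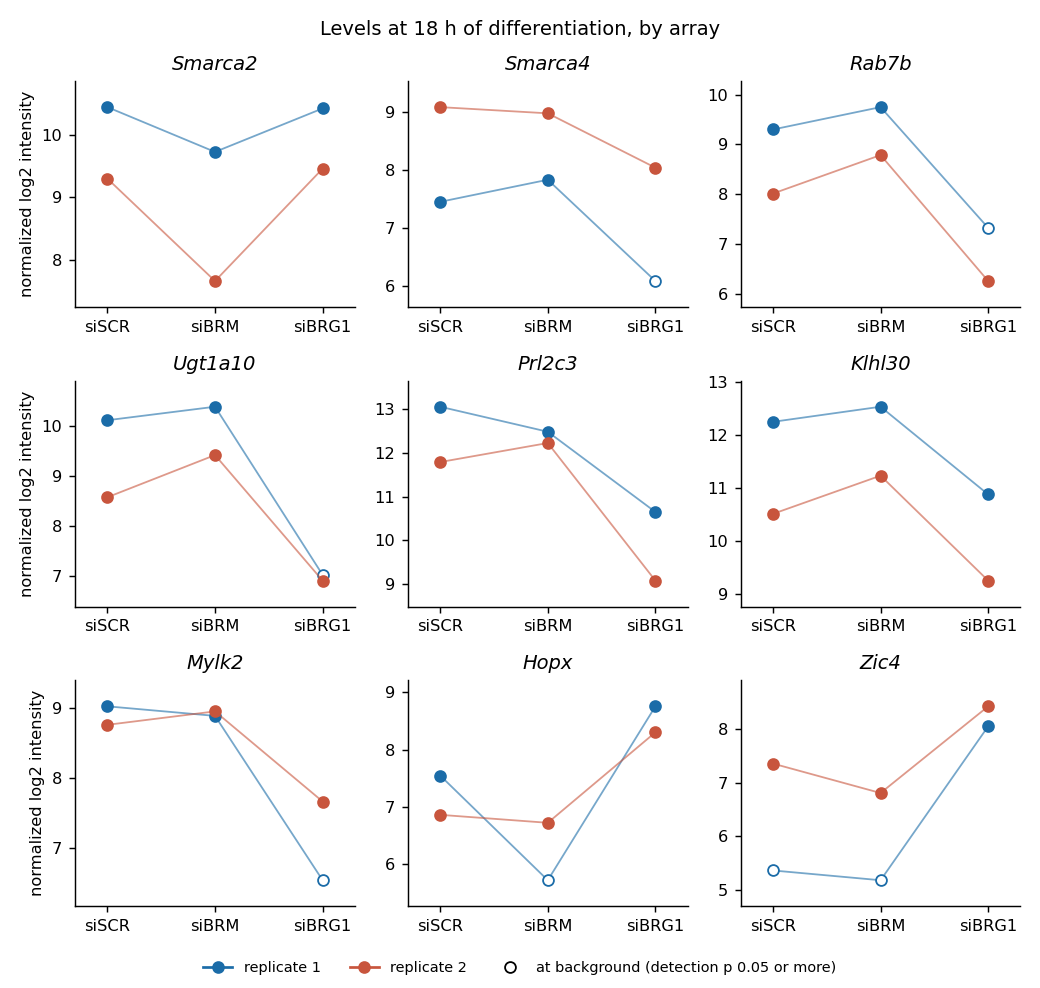
Normalized log2 intensity of 9 genes on the arrays of 18 h, by siRNA, with a line for each replicate; open circles are at background. Smarca2 was lowest with siBRM, at 9.72 and 7.67, and Smarca4 lowest with siBRG1, at 6.09 and 8.04, while for Rab7b, Ugt1a10, Prl2c3, Klhl30 and Mylk2 the siBRG1 array was the lowest in each replicate and for Hopx and Zic4 it was the highest.

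No gene passed limma's test at an adjusted p under 0.05 in this comparison (0% of the 10847 genes), and the smallest adjusted p was 0.231, for Rab7b. At an unadjusted p under 0.05 there were 736 genes, where 542 are expected by chance. Of these, 436 were higher with siBRM (4.02% of the tested genes) and 300 lower (2.77%). The sign was the same in both replicates for 2850 genes on the higher side (26.3%) and 3083 on the lower side (28.4%), and 4914 genes had opposite signs. Across all genes the differences of the replicates correlated with r = 0.183, and with r = 0.298 over the genes above background on all 4 arrays. Genes share arrays and are not independent replicates, so these r only describe how far the replicates run together.

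Sizes were therefore described by a rule without a test, a difference of at least 2-fold in the same direction in both replicates, with the gene above background on both arrays of the higher group. It took 67 genes higher with siBRM (0.618% of those tested) and 14 lower (0.129%). The higher genes differed by 1.01 to 2.95, with a median of 1.65, and the lower ones by -2.38 to -1.06, with a median of -1.69. Just inside the rule were Aqp1, a water channel gene with 1.02 and 1.01 in the replicates, and Ranbp3l with -1.12 and -1.0. Just outside were Lgals3bp with -0.99 and -1.63 and the chemokine gene Cxcl1 with -0.98 and -1.32. The count of 81 depends on how background is treated: it was 12 without background correction and 14 with the authors' normalized values. Of the 67 genes 28 were above background on all 4 arrays, and for 15 of the 67 siBRG1 was at background on both arrays.

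**Figure D2:**
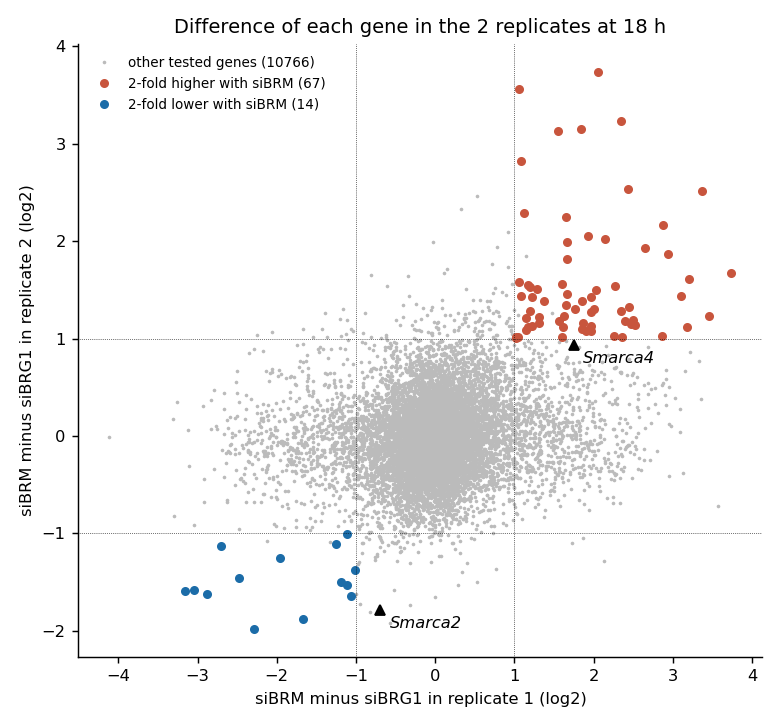
The log2 difference siBRM minus siBRG1 of each tested gene in replicate 1 (x axis) against replicate 2 (y axis), with dotted lines at 2-fold. The 67 genes at the upper right and the 14 at the lower left are those past the 2-fold rule, and Smarca2, with -0.69 in replicate 1, and Smarca4, with 0.94 in replicate 2, lie outside it.

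The gene with the smallest p was Rab7b, which encodes a small GTPase of late endosomal and lysosomal transport. Its level was 9.75 and 8.79 with siBRM against 7.32 and 6.25 with siBRG1, where the value of replicate 1 was at background. Both siBRM arrays lay above both siBRG1 arrays, as they did for 7.32% of all tested genes and for 60 of the 67 past the rule, while both lay below for 6.64% of all genes and for 10 of the 14. The rule used the same values, so these counts only describe the genes it took. The difference for Rab7b was 2.48 ± 0.25, with 2.43 and 2.53 in the replicates. Stmn2, a microtubule-binding stathmin gene chosen after its values were seen, had levels of 12.37 and 12.48 against 11.31 and 10.90, without overlap. Klhl30, a kelch-like gene, stood at 12.54 and 11.24 with siBRM and at 10.88 and 9.25 with siBRG1. Again the groups did not overlap, and the difference for Klhl30 was 1.82 ± 0.30 (adjusted p = 0.419).

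Enzymes that conjugate small molecules for excretion were among the genes past the 2-fold rule on the higher side. Ugt1a10, a UDP-glucuronosyltransferase gene, was at 10.39 and 9.42 with siBRM and at 7.02, at background, and 6.90 with siBRG1. All siBRM values of Ugt1a10 lay above those of siBRG1, and its difference of 2.95 ± 0.46 is the highest of the 67 (adjusted p = 0.419). Its neighbours in the same gene cluster, Ugt1a6a and Ugt1a6b, were at background with siBRG1 on both arrays, so the bounds are at least 2.36-fold and at least 3.06-fold. The Ugt1a genes share their last exons, and probes there cannot tell them apart. The glutathione S-transferase genes Gsta1 and Gsta2, near copies of each other as well, differed by 3.56 and 2.82 in replicate 2. In replicate 1 both were at background with siBRG1, so the ratios there are bounds of at least 1.84-fold for Gsta1 and at least 1.10-fold for Gsta2. The microsomal family member Mgst1 had a fitted difference of 1.31 ± 0.32, with 1.02 in replicate 2 and a ratio of at least 1.78-fold in replicate 1, where siBRG1 was at background. These families other than Ugt1a10 were singled out after their values were seen.

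A second family was that of the proliferins, secreted relatives of prolactin made by growing cells and placenta, which were also singled out after their values were seen. Prl2c3 had levels of 12.49 and 12.23 with siBRM, 10.65 and 9.08 with siBRG1, and 13.06 and 11.79 with siSCR. Both siBRG1 arrays were below all 4 others, and the difference for Prl2c3 was 2.49 ± 0.49 (adjusted p = 0.481). Prl2c2 differed by 2.90 ± 0.58 and Prl2c4 by 2.79 ± 0.54, and both were above background on all 4 arrays. The 3 transcripts are nearly identical, so their probes are not independent and may read one another. The promoter of Prl2c3 is shown because the family lay together among the highest differences and because proliferin genes are a known example of control by AP-1, the dimer of Fos and Jun. The capitals mark the match to the AP-1 motif in the loose form TGANTCA, where N is any base. Here the middle base is A (TGAATCA). Both strands of the 250 bases before the start were searched (RefSeq, GRCm38.p6, chr13:12800080-12800329, minus strand).
Prl2c3: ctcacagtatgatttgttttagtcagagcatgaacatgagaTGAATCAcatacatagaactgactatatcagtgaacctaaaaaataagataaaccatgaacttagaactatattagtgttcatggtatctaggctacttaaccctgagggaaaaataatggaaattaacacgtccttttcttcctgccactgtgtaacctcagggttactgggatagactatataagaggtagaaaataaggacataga

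The match lies 209 to 203 bases before the start. In this loose form the motif occurs in 6.75% of the 32851 promoters of the same length. A match describes the letters of the window and nothing about binding in these cells.

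The remaining named genes on the higher side had varied roles. Htra3, a secreted serine protease gene, was at 7.88 and 7.86 with siBRM and at background with siBRG1, so the ratio is at least 2.18-fold. Itgb7, an integrin beta subunit gene, differed by 1.99 ± 0.32, with levels of 9.68 and 9.20 against 7.75 and 7.14. The chemokine gene Ccl9 differed by 1.95 ± 0.32, with 9.40 and 9.24 against 7.75 and 6.99. For Itgb7 and Ccl9 the groups did not overlap and all 4 arrays were above background. Ak1, the adenylate kinase of muscle cytosol, differed by 1.70 ± 0.27, with 1.97 and 1.43 in the replicates, and the GPI-anchored surface protein gene Ly6c1 by 1.74 ± 0.28, with 1.66 and 1.81. The uncharacterized transcript 1700093K21Rik differed by 2.40 and the alpha globin gene Hba-a1 by 1.88, each with siBRG1 at background in replicate 1, where the ratio was at least 2.03-fold and at least 4.06-fold. Limma's adjusted p was 0.419 for each of these 7 genes.

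Further genes past the rule were picked after their values were seen, for being above background on all 4 arrays. The urea cycle gene Ass1, which makes argininosuccinate, stood at 10.93 and 10.08 against 8.80 and 8.05, a difference of 2.08 ± 0.47. Pdgfb, a growth factor gene, differed by 1.38 in each replicate, and Cxcr4, the receptor of the chemokine CXCL12, by 1.19 and 1.53. The melanosomal and lysosomal glycoprotein gene Gpnmb differed by 1.55 and 3.13, and the anchoring fibril collagen gene Col7a1 by 1.76 and 1.31. In these 5 genes both siBRM levels were above both siBRG1 levels, which the way they were picked favours.

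On the lower side, meaning more RNA with siBRG1 than with siBRM, the smallest p was that of Hopx, which encodes a homeodomain protein that does not bind DNA and is known in mouse heart to restrain the serum response factor SRF. Hopx had levels of 5.71, at background, and 6.72 with siBRM, and 8.76 and 8.30 with siBRG1. With siSCR it stood at 7.55 and 6.86, so the siBRG1 arrays were the highest of each replicate. The difference for Hopx was -2.31 ± 0.40 (adjusted p = 0.423), and in replicate 1 the ratio was at least 3.39-fold. The Hopx promoter is shown for the CArG box, the element that SRF binds, which is in capitals (RefSeq, GRCm38.p6, chr5:77115124-77115373, minus strand).
Hopx: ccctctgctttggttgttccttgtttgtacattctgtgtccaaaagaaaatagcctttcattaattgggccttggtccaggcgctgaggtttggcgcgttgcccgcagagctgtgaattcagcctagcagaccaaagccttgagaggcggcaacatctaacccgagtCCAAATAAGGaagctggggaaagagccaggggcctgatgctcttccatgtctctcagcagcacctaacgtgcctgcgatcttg

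The box lies 83 to 74 bases before the start, and 1.47% of all promoters of this length hold one, both strands searched.

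Other genes with more RNA in siBRG1 cells included developmental regulators and signalling molecules. Zic4, a zinc finger transcription factor gene, was at 5.17, at background, and 6.80 with siBRM and at 8.05 and 8.42 with siBRG1, a difference of -2.25 ± 0.40. Asic1, an acid-sensing ion channel gene, was at 6.14, at background, and 6.46 against 9.30 and 8.06, a difference of -2.38 ± 0.49. In both genes the groups did not overlap, and the bounds in replicate 1 were at least 2.08-fold for Zic4 and at least 4.96-fold for Asic1. Fjx1 had a fitted difference of -1.97 ± 0.41, with -1.46 in replicate 2 and siBRM at background in replicate 1, where it was at least 1.90-fold lower. Sybu, which links vesicles to kinesin, differed by -1.61 ± 0.35, with -1.96 and -1.26. Osr2, another zinc finger factor gene, differed by -1.19 and Ccdc189 by -1.18. The Wnt ligand gene Wnt6 differed by -1.35 ± 0.30, but its 3 tested probes did not share a sign. The mitochondrially encoded complex I gene ND5 differed by -1.78 ± 0.38, with -1.89 in replicate 2, and its siBRM value of replicate 1 was at background, at least 2.44-fold lower. Limma's adjusted p ran from 0.423 for Hopx to 0.615 for Ccdc189 among the 10 genes named on this side.

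Ccl2, the monocyte chemoattractant, was at 5.42, at background, and 8.40 with siBRM and at 8.13 and 9.53 with siBRG1, a difference of -1.92 ± 0.45. Its ranges overlapped across replicates. Chosen after its values were seen, Sema7a, a membrane-anchored semaphorin gene, stood at 9.57 and 10.50 against 10.77 and 12.01. Hs3st3b1, a heparan sulfate sulfotransferase gene picked in the same way, was at background with siBRM in replicate 1, at least 3.09-fold lower there, and differed by -1.98 in replicate 2.

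The siSCR arrays of the same BeadChips show on which side of the control these genes lay. Both differences from siSCR share its arrays, so they are given side by side and not correlated. Over the 67 genes higher with siBRM, the median difference from siSCR was 0.17 and 0.35 in siBRM cells in replicates 1 and 2, and -1.63 and -1.16 in siBRG1 cells. Over the 14 genes lower with siBRM it was -0.29 and -0.12 in siBRM cells and 1.39 and 1.30 in siBRG1 cells. The siSCR level was nearer to siBRM than to siBRG1 in both replicates for 56 of the 67 genes and 10 of the 14, and nearer to siBRG1 in both for 1 gene of each set. Over all tested genes these shares were 28.3% and 22.9%. The rule selects a wide gap between siBRM and siBRG1 in both replicates and did not use which of them holds the siSCR level. Genes with small gaps change side between replicates more easily, so the shares over all genes are not a like scale. Of the 67 genes 28 were above background on all 4 arrays, and for 15 siBRG1 was at background on both arrays. The siBRG1 medians include such values.

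**Figure D3:**
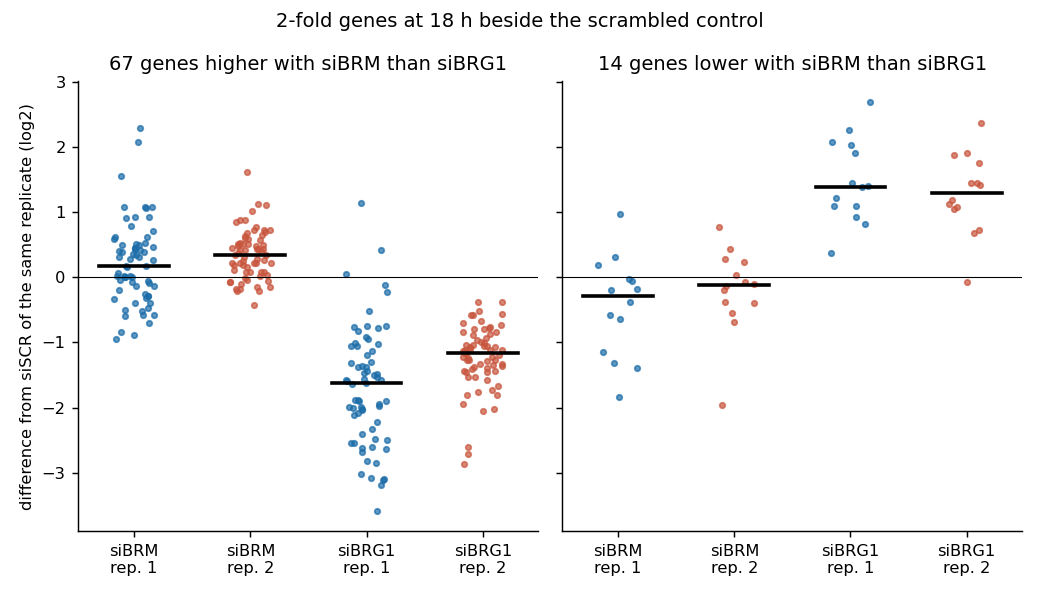
The log2 difference from siSCR of the same replicate for the 67 and the 14 genes past the 2-fold rule, by siRNA and replicate, with bars at the medians. In the siBRM columns the medians lie between -0.29 and 0.35, and in the siBRG1 columns at -1.63 and -1.16 for the higher genes and at 1.39 and 1.30 for the lower ones.

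Genes of the contractile apparatus were mostly higher with siBRM than with siBRG1. Of 40 tested sarcomere genes 27 were higher in both replicates (67.5%, where 26.3% of all genes were) and 3 lower (7.5%, against 28.4%). At an unadjusted p under 0.05, 11 were higher (27.5%, against 4.02% of all genes) and 0 lower (against 2.77%), and 0 passed the adjusted test. The median difference was 0.48 (0.51 and 0.44 in the replicates), against -0.01 over all genes. Over the 20 members above background on all 4 arrays the median was 0.59. Of these 16 were higher in both and 2 lower, where 25.7% and 30.9% of all genes detected on the 4 arrays were. With dim values held at the detection limit the median over the 40 was 0.18. In RNA of whole cultures, fewer differentiating cells and less RNA per cell cannot be told apart.

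Mylk2, the skeletal muscle myosin light chain kinase gene, had levels of 8.89 and 8.95 with siBRM and of 6.54, at background, and 7.67 with siBRG1. Its siSCR levels, 9.02 and 8.76, were close to those of siBRM, and the difference was 1.82 ± 0.37 (adjusted p = 0.523). In replicate 1 the ratio for Mylk2 was at least 2.89-fold. Myom3, an M-band gene, stood at 7.78 and 7.79 against 5.28, at background, and 6.59, a fitted difference of 1.85 ± 0.37. The ratio in replicate 1 was at least 1.34-fold, and the 2 tested probes of Myom3 have opposite signs. Klhl41, a kelch protein gene of the sarcomere, was at 10.61 and 10.51 with siBRM and at 9.93 and 9.12 with siBRG1. Both siBRM arrays of Klhl41 were above both siBRG1 arrays, with a difference of 1.04 ± 0.26 (adjusted p = 0.638). Members picked after their values were seen were the M-band gene Myom2, with 1.74 and 0.75 in the replicates, fast troponin I (Tnni2), with 0.73 and 1.46, and the myosin light chain gene Myl1, with 0.93 and 0.99, though the probes of Myl1 do not all share a sign.

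In the list of calcium cycling and energy supply in muscle 30 genes were tested, of which 13 were higher in both replicates (43.3%, against 26.3% of all genes) and 2 lower (6.67%, against 28.4%). The median was 0.32, but it was 0.02 in replicate 1 and 0.58 in replicate 2. With dim values held at the detection limit it was 0.21, with opposite signs in the replicates (-0.30 and 0.44). Over the 14 members above background on all 4 arrays it was 0.42. An unadjusted p under 0.05 was found for 5 on the higher side (16.7%, against 4.02% of all genes) and 0 on the lower (against 2.77%). Cox7a1, the muscle form of a cytochrome c oxidase subunit, had levels of 8.89 and 8.70 with siBRM against 7.61 and 7.19 with siBRG1, without overlap. The difference for Cox7a1 was 1.40 ± 0.24 (adjusted p = 0.423). Atp2a1, the fast-twitch calcium pump of the sarcoplasmic reticulum, stood at 10.88 and 10.86 against 9.65 and 10.21, a difference of 0.94 ± 0.25 (adjusted p = 0.701). Ryr1, the calcium release channel gene, differed by 0.65 in replicate 2, with siBRG1 at background in replicate 1, a ratio of at least 1.78-fold there, and with probes that disagree in sign. The muscle creatine kinase gene Ckm was at background on both arrays of replicate 1 and differed by 1.64 in replicate 2. Cox6a2, another muscle oxidase subunit gene, was at background with siBRG1, which gives a ratio of at least 1.33-fold.

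The promoters of Klhl41 and Atp2a1 are shown for the E-box CAGCTG, a core sequence that MyoD and myogenin bind. RefSeq gave a promoter for 32 sarcomere genes, and 14 of them held it in the 250 bases before the start (43.8%), and of 21 calcium and energy genes 10 did (47.6%), against 14.7% of 27025 genes. The sequence is its own reverse complement, so both strands are read at once. The capitals mark the match, which lies 127 to 122 bases before the start of Klhl41 (GRCm38.p6, chr2:69669870-69670119, plus strand) and 55 to 50 bases before that of Atp2a1 (chr7:126463074-126463323, minus strand).
Klhl41: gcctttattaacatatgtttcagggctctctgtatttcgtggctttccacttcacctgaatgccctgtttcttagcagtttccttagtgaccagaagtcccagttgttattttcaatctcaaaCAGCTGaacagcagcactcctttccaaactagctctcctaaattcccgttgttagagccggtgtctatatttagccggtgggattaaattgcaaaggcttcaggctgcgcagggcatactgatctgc
Atp2a1: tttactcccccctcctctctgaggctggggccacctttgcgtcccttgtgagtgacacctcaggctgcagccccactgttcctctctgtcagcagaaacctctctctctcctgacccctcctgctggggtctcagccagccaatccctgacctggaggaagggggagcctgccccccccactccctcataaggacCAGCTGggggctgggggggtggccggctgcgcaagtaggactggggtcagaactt

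Genes of myoblast fusion, the muscle membrane and the synapse had a median difference of 0.32 (0.41 and 0.23) over 27 genes. Of these 15 were higher in both replicates (55.6%, against 26.3% of all genes) and 5 lower (18.5%, against 28.4%). Those with an unadjusted p under 0.05 were 6 higher (22.2%, against 4.02%) and 0 lower (against 2.77%). M-cadherin (Cdh15), an adhesion molecule of myoblasts, stood at 13.30 and 12.90 with siBRM and at 12.33 and 12.08 with siBRG1. The groups did not overlap, and the difference for Cdh15 was 0.89 ± 0.26 (adjusted p = 0.710). The beta sarcoglycan gene Sgcb differed by 0.77 and 0.79. Dysf, a membrane repair gene, had a fitted difference of 1.16 ± 0.27 and probes of mixed sign. In replicate 1 siBRG1 was at background, a ratio of at least 1.42-fold. The acetylcholine receptor alpha subunit gene Chrna1 differed by 0.77 and 0.51.

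Of the myogenic transcription factors 13 were tested, 7 higher in both replicates (53.8%, against 26.3% of all genes) and 4 lower (30.8%, against 28.4%), with a median of 0.18. Myod1, which commits cells to the muscle fate, was at 8.61 and 9.93 with siBRM and at 7.38 and 9.14 with siBRG1. Within each replicate siBRM was higher, while the ranges overlapped across replicates, and the difference for Myod1 was 1.01 ± 0.43 (adjusted p = 0.742). Myogenin (Myog), which acts later and drives terminal differentiation, differed by 0.66 ± 0.29, with 0.24 and 1.08, and Mef2c by -0.10 ± 0.32. Six4 was at background on both arrays of replicate 1 and differed by -0.32 in replicate 2. With dim values held at the detection limit the list median was -0.06, so its direction depends on the dim members.

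The subunit gene Smarcd3, whose product joins MyoD to the complex, differed by 0.73 ± 0.26, with 0.81 in replicate 2 and siBRG1 at background in replicate 1, a ratio of at least 1.24-fold. Of 23 tested SWI/SNF subunit genes other than the ATPases 5 were higher in both replicates (21.7%, against 26.3% of all genes) and 9 lower (39.1%, against 28.4%). At an unadjusted p under 0.05, 1 was higher, Smarcd3 (4.35%, near the 4.02% of all genes), and 0 lower (against 2.77%). The median of the 23 was -0.07, and 0.07 under median scaling, where the median of all genes was 0.11. Smarcd2, an alternative to Smarcd3 in the complex, differed by -0.27 and -0.56, and Bicral, of the GLTSCR1-type complexes, by -0.22 and -1.19.

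**Figure D4:**
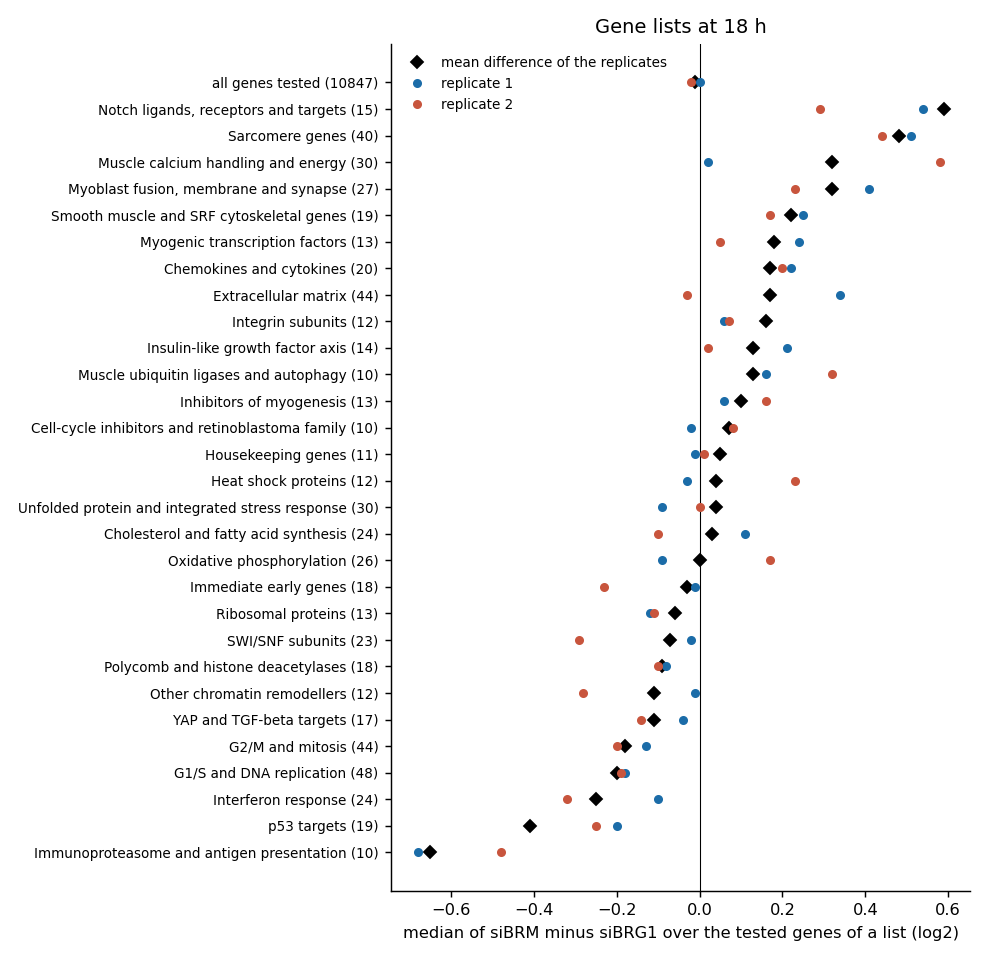
Median log2 difference siBRM minus siBRG1 over the tested genes of each list with at least 10 of them (number in brackets), for the mean of the replicates (diamonds) and for each replicate (dots). The sarcomere list lay at 0.48 and the immunoproteasome and antigen presentation list at -0.65, each with both replicates on the same side, while all genes lay at -0.01.

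Notch signalling, which holds muscle precursors back from differentiation, had a median of 0.59 over 15 genes, with 8 higher in both replicates (53.3%, against 26.3% of all genes) and 4 lower (26.7%, against 28.4%). Over the 8 members above background on all 4 arrays it was -0.01, so the list's value rests on dim genes. The ligand gene Dll1 had a fitted difference of 1.30 ± 0.37, with levels of 7.54 and 8.37 against 5.56, at background, and 7.74. It differed by 0.62 in replicate 2, and the ratio in replicate 1 was at least 1.14-fold. The target gene Nrarp, a feedback inhibitor, had a fitted difference of 1.48 ± 0.45, with siBRG1 at background in replicate 1, a ratio of at least 1.61-fold there. Of the well-detected targets, Hey1 was at 9.97 and 9.79 with siBRM against 9.29 and 9.02 with siBRG1, and Hes1 at 10.39 and 10.57 against 10.88 and 11.12. Hey1 was thus higher with siBRM and Hes1 lower, in both replicates, by 0.73 ± 0.24 and -0.51 ± 0.23, and the receptor gene Notch3, picked after its values were seen, differed by 0.57 and 0.61. Id2, an inhibitor that sequesters the partners of MyoD, differed by 1.07 and 0.49.

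Genes of the cell cycle leaned the other way by small amounts. Of 48 genes of the G1/S transition and DNA replication 24 were lower with siBRM in both replicates (50%, against 28.4% of all genes) and 6 higher (12.5%, against 26.3%), with a median of -0.20 (-0.18 and -0.19). Of 44 genes of G2/M and mitosis 18 were lower in both (40.9%) and 3 higher (6.82%), with a median of -0.18. At an unadjusted p under 0.05, 2 of the G1/S genes were lower and 1 higher, and 1 G2/M gene was lower, where 2.77% of all genes were lower and 4.02% higher. Median scaling moved the median of all genes to 0.11, and there the G1/S median was -0.03. The helicase subunit gene Mcm7 had levels of 10.51 and 9.39 against 10.99 and 10.19, the single-strand binding gene Rpa2 differed by -0.72 and -0.84, and the mitotic gene Cdca3 by -0.94 and -0.49.

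Of 5 genes of D-type cyclins and their kinases and 10 of cell-cycle inhibitors and the retinoblastoma family, 0 had an unadjusted p under 0.05. Over all genes 4.02% were higher and 2.77% lower at that p, and with so few members a count of 0 is near those shares. Cyclin D1 (Ccnd1), which drives G1 and opposes MyoD, was at 13.48 and 13.76 with siBRM and at 13.24 and 13.46 with siBRG1, a difference of 0.27 ± 0.45. Cyclin D3 (Ccnd3), which stays on in myotubes, differed by 0.02 ± 0.23. The inhibitor p21 (Cdkn1a) was at 14.86 and 13.61 against 14.25 and 13.29, a difference of 0.47 ± 0.32, and the retinoblastoma gene Rb1 differed by 0.26 ± 0.36. With errors of that size 2 arrays a group do not resolve differences as small as these. The inhibitor p57 (Cdkn1c) was at background on all 4 arrays.

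The lowest median among lists of at least 10 tested genes was that of the immunoproteasome and class I antigen presentation, whose proteins cut peptides, carry them into the endoplasmic reticulum and load them on MHC molecules. Of 10 tested genes 7 were lower with siBRM in both replicates (70%, against 28.4% of all genes) and 1 higher (10%, against 26.3%), with a median of -0.65 (-0.68 and -0.48). At an unadjusted p under 0.05, 5 were lower (50%, against 2.77%) and 0 higher (against 4.02%). Tapasin (Tapbp), which holds MHC molecules at the peptide transporter, had levels of 8.65 and 8.34 with siBRM and of 9.61 and 9.64 with siBRG1. The siSCR levels of Tapbp were 9.37 and 8.61, so the control lay near siBRG1 in replicate 1 and near siBRM in replicate 2, and the difference was -1.13 ± 0.30 (adjusted p = 0.701). The transporter gene Tap2 stood at 8.17 and 8.32 against 8.74 and 10.24, a difference of -1.25 ± 0.44. Psmb8, a catalytic subunit gene of the immunoproteasome, stood at 6.61, at background, and 6.82 against 8.60 and 7.29. Its siSCR level was 6.50 in each replicate, at background in replicate 1. For Tapbp, Tap2 and Psmb8 both siBRG1 arrays lay above both siBRM arrays. Members picked after their values were seen were the subunit gene Psmb10, with -0.79 and -0.40, and the activator gene Psme2, with -1.07 and -0.51.

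Of 24 interferon response genes 10 were lower with siBRM in both replicates (41.7%, against 28.4% of all genes) and 4 higher (16.7%, against 26.3%). Their median was -0.25, but -0.05 without background correction, -0.07 with the authors' normalized values and -0.06 under median scaling. Under median scaling the median of all genes was 0.11. At an unadjusted p under 0.05, 3 were lower (12.5%, against 2.77%) and 1 higher (4.17%, against 4.02%). The ubiquitin-like modifier Isg15 was at background with siBRM in replicate 1, at least 2.17-fold lower there, and differed by -0.50 in replicate 2. The regulator Irf1, picked after its values were seen and above background on all arrays, stood at 11.77 and 12.22 against 12.69 and 13.12, a difference of -0.91 ± 0.35 over a gene whose 5 probes share a sign. Rsad2, an antiviral gene, was at background with siBRG1 on both arrays and with siBRM in replicate 1, and the bound of replicate 2 put siBRM at least 1.36-fold above siBRG1. Igtp, an interferon-induced GTPase gene, was at background with siBRM on both arrays, at least 2.13-fold lower.

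Of 20 chemokine and cytokine genes 8 were higher with siBRM in both replicates (40%, against 26.3% of all genes) and 5 lower (25%, against 28.4%), with a median of 0.17. Among them 4 were higher at an unadjusted p under 0.05 (20%, against 4.02%) and 2 lower (10%, against 2.77%). The list median was -0.02 with dim values held at the detection limit and 0.33 over the 8 members above background on all 4 arrays. Its direction thus depends on how dim values are treated. Beside Ccl9 and Ccl2, the neutrophil chemokine Cxcl1 stood at 10.43 and 8.98 with siBRM against 11.41 and 10.30 with siBRG1, a difference of -1.15 ± 0.26. Il18 was at background with siBRG1, at least 1.54-fold higher with siBRM. Hgf, the growth factor that activates satellite cells, was picked after its values were seen and differed by 1.40 and 0.92.

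Among 19 genes of the p53 response 12 were lower with siBRM in both replicates (63.2%, against 28.4% of all genes) and 6 higher (31.6%, against 26.3%). The median was -0.41, but the medians of the single replicates were nearer to 0, at -0.20 and -0.25. It was -0.22 with the authors' normalized values and -0.14 when each gene was read as the mean of its probes. Sesn1, a stress sensor of the mTORC1 pathway, differed by -0.76 and -1.24 in the replicates, with probes of mixed sign. Ddit4, an inhibitor of the same pathway, stood at 11.66 and 11.95 against 12.39 and 12.73, without overlap, a difference of -0.75 ± 0.24 (adjusted p = 0.720). The ribonucleotide reductase subunit gene Rrm2b differed by 0.33 in replicate 2, and with siBRG1 at background in replicate 1 the ratio there was at least 1.16-fold. The p53 target p21, given above, was on the higher side.

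Extracellular matrix genes had a median of 0.17 over 44 genes, but it was 0.34 in replicate 1 and -0.03 in replicate 2. Thrombospondin 2 (Thbs2) had levels of 10.29 and 9.08 with siBRM against 8.66 and 7.86 with siBRG1, and 10.29 and 8.70 with siSCR. The difference for Thbs2 was 1.43 ± 0.26 (adjusted p = 0.465), and the proteoglycan decorin (Dcn) differed by 0.41 and 0.97. Of 19 smooth muscle and SRF target genes 8 were higher in both (42.1%, against 26.3% of all genes) and 1 lower (5.26%, against 28.4%), with a median of 0.22. The myosin light chain gene Myl9 stood at 12.56 and 12.98 against 11.74 and 12.22 and the smooth muscle actin gene Actg2 at 11.93 and 11.69 against 10.99 and 10.83. Neither gene showed an overlap between the groups.

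Integrin genes, which encode cell surface receptors of the matrix, lay on both sides. The alpha 3 gene Itga3, of a laminin receptor, stood at 11.69 and 11.50 against 10.73 and 10.42, a difference of 1.02 ± 0.24, and the beta 5 gene Itgb5, of a vitronectin receptor, at 8.76 and 11.65 against 9.85 and 12.47, a difference of -0.96 ± 0.31. Of 12 integrin genes 5 were higher in both replicates and 5 lower (41.7% each, against 26.3% and 28.4% of all genes). Among YAP and TGF-beta targets the matricellular gene Ccn2 differed by -0.97 ± 0.35, while Pmepa1, an inhibitor of TGF-beta signalling, differed by 1.04 ± 0.30 with probes of mixed sign. The ligand gene Bmp4 had a fitted difference of -1.21 ± 0.29, with -1.58 in replicate 1 and siBRM at background in replicate 2, where it was at least 1.73-fold lower. The list median of these targets was -0.11, and 0.04 under median scaling, where the median of all genes was 0.11. In the insulin-like growth factor axis the binding protein gene Igfbp2 differed by 0.77 and 1.04, the receptor gene Igf1r by -0.52 and -0.96 and the ligand gene Igf1 by -0.22 in replicate 2. In replicate 1 Igf1 was at background with siBRM, at least 1.83-fold lower.

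Some lists had medians near 0. The medians were 0.00 for oxidative phosphorylation, -0.06 for ribosomal proteins and 0.05 for housekeeping genes, with Gapdh at -0.05 ± 0.23 and Actb at -0.07 ± 0.23. Of 13 ribosomal protein genes 6 were lower in both replicates (46.2%, against 28.4% of all genes) and 0 higher (against 26.3%). Median levels on the 4 arrays were 15.13 to 15.32 for ribosomal proteins and 7.71 to 8.64 for sarcomere genes. Such bright lists are no scale for the dimmer ones. Cholesterol and fatty acid synthesis genes had a median of 0.03, heat shock proteins 0.04, and the unfolded protein and integrated stress response 0.04, of mixed sign between alternatives.

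Markers of other cell types were few above background. Of the myoblast identity markers 8 were tested and all were above background on the 4 arrays, 5 of them higher with siBRM in both replicates (62.5%, against 26.3% of all genes) and 0 lower (against 28.4%), with a median of 0.31. Of 10 listed adipocyte markers 3 were tested, with a median of 0.67, and the lipoprotein lipase gene Lpl stood at 9.74 and 8.23 against 8.90 and 6.76, a difference of 1.16 ± 0.26. Of 8 epithelial markers 4 were tested, all higher in both replicates (against 26.3% of all genes) with a median of 0.59. It was 0.42 with dim values held at the detection limit. The keratin genes Krt13, at 8.55 and 9.13 against 7.43 and 6.84, and Krt14, at 11.62 and 10.50 against 10.96 and 9.18, account for the epithelial markers above background on all 4 arrays, and the defining marker Cdh1 was at background on 3 of the 4. Osteoblast and chondrocyte markers (6 of 14 tested) had a median of -0.23, fibroblast markers (5 of 8) -0.05, macrophage markers (2 of 9) -0.06 and endothelial markers (2 of 8) 0.03. The part of any of these in the differences above was not tested.

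The same comparison at 48 h uses other arrays, those of replicate 2 on the same BeadChip as at 18 h. Of the 67 genes higher with siBRM at 18 h 47 were higher in both replicates at 48 h and 9 lower, where 28.7% and 31% of all genes were, and their median at 48 h was 0.69. Of the 14 lower genes 12 were lower in both at 48 h and 1 higher, with a median of -1.35. Ugt1a10 had a fitted difference of 2.24 at 48 h with siBRG1 at background on both arrays, while Rab7b differed by 0.48 with siBRG1 at background in replicate 2. Itgb7 and 1700093K21Rik were at background on all 4 arrays of 48 h. Fjx1 differed by -2.79 and Hopx by -0.65, and Asic1 and Sybu had fitted differences of -2.78 and -2.59 with siBRM at background on both arrays. The sarcomere list had a median of 1.05 at 48 h, with 36 of 40 genes higher in both replicates (against 28.7% of all genes), the calcium and energy list 0.90, the fusion list 0.66 and the antigen presentation list -0.61. Smarca2 differed by -1.36 and Smarca4 by 1.82.

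A test of the change in the siBRM minus siBRG1 difference between 18 h and 48 h called 0 genes in limma, with 514 at an unadjusted p under 0.05 and a smallest adjusted p of 0.971. The values at the times are thus given side by side, and no gene was shown to differ between them.

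**Figure D5:**
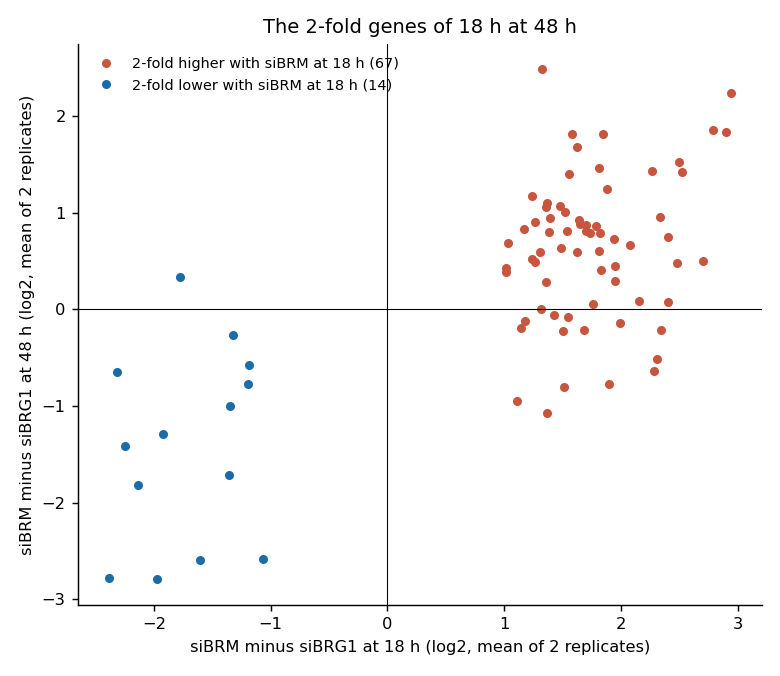
The mean log2 difference siBRM minus siBRG1 at 18 h (x axis) and at 48 h (y axis) for the genes past the 2-fold rule at 18 h. Most points of the 67 higher genes lie above 0 at 48 h, with a median of 0.69, and 12 of the 14 lower genes are lower in both replicates, with a median of -1.35.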

How the data were processed

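RNA of C2C12 cells was measured in 12 samples on Illumina mouse BeadChips, 2 arrays in each of 6 groups. Per the submitters' processing notes, GenomeStudio 2009.1 was used; any other step is not given in the sources used here. Deposited intensities of the unnormalized table are linear bead-averaged signals per probe, with deposited detection p-values against the array's negative controls and, per the file headers, the number of beads and the bead standard error as other units (median 43 to 45 beads). The second table holds the authors' normalized intensities, with nearly equal quantiles on every array.

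From the unnormalized signals, background was removed with limma 3.58.1 (R 4.3.3, statmod 1.5.0) by normexp from the detection p-values (offset 16), followed by quantile normalization and log2. Probes with a detection p under 0.05 on at least 2 arrays were tested (20415 probes, 10847 genes). The platform annotation gave 34885 probes 1 symbol, 18 several and 10378 none. Each gene took the tested probe that was brightest on average over the 12 arrays. Of 4219 genes with several tested probes, 50.9% had 1 sign in all of them, and 26 of 32 such genes past the 2-fold rule did.

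The limma model held 6 group means and a fixed BeadChip term, which left 4 residual degrees of freedom. Tests were two-sided, and p-values were adjusted by Benjamini-Hochberg over all tested probes. The other 8 arrays serve for the spread. Same-numbered replicates of different groups deviated together from their group means (over 15 pairs of groups the lowest r was 0.449 and the highest 0.825), so the number pairs the arrays. Where neither array of a group detected a gene, its ratio is a bound against the lowest detected signal of those arrays. Where 1 array of a group was at background the text says so, and the fitted difference of such a gene includes the measured value of that array. The fit was tested on simulated data, where 34 of 40 probes raised by 2 on the log2 scale and 5 of 40 raised by 1 were called. Of those lowered by 2 and by 1, 29 of 40 and 1 of 40 were called, and 4 unchanged probes were called as well. The simulated noise was independent between arrays and had no background floor, so these counts do not describe recovery for dim genes.

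Named genes are Smarca2, Smarca4, the 10 largest called differences in each direction, filled up from the 2-fold rule by p where fewer were called, up to 3 members per list with the smallest p and 1 sign in both replicates, and 13 further genes of myogenesis, the cell cycle and controls. The members and lists were chosen with earlier results of these data known. Promoters are from RefSeq.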

Additional observations from a re-analysis of the deposited data

Results flagged for a closer look

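For 8 of the named genes the siBRM minus siBRG1 difference had opposite signs at 18 h and at 48 h, each sign shared by both replicates. Limma's adjusted p of the difference between the times was 0.971 for each. The values below are the fitted 18 h difference minus the 48 h difference on the log2 scale, and where an array was at background they include its measured value and are no bound. The keratin gene Krt14 gave 2.41, from 1.0 at 18 h and -1.41 at 48 h, with all 8 arrays above background. The thrombospondin gene Thbs2 gave 1.49, from 1.43 and -0.06, also above background throughout. The mitochondrial gene ND5 gave -2.11, from -1.78 and 0.33, with siBRM at background in replicate 1 at 18 h. The glucuronosyltransferase gene Ugt1a6a gave 2.56, from 2.34 and -0.22, and it was at background with siBRG1 on both arrays at 18 h and on 3 of the 4 arrays at 48 h. Igtp gave -1.67, from -1.65 and 0.02, with siBRM at background on both arrays at 18 h. The antiviral gene Rsad2 gave 1.89, from 1.13 and -0.76, at background on 3 of the 4 arrays at each time. Six4 gave -1.06, from -0.43 and 0.64, at background on both arrays of replicate 1 at each time, and Id2 gave 0.82, from 0.78 and -0.04.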

How the results depend on the processing

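The number of genes called was 0 under every setting run except these: 4 with quantile normalization without background correction (Klhl30, Prl2c4, Rab7b and Stmn2, smallest adjusted p = 0.0466) and 2 with median scaling (Rab7b and Ugt1a10, smallest adjusted p = 0.00883), all of them higher with siBRM. Without the replicate block it was 0 as well, with 147 genes at an unadjusted p under 0.05 in place of 736, and the pairing changed no call. That count was 147 to 1323 over all settings, with 152 to 1146 when arrays were left out. Under median scaling 764 of 901 such genes were higher with siBRM, against 436 of 736. The count of 81 genes past the 2-fold rule was 12 without background correction, 14 with the authors' table, 48 with an offset of 50, 34 when all 4 arrays had to be above background, 389 at 1.5-fold and 19 at 3-fold.

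Leaving out arrays gave -1.79 to -0.69 for Smarca2 and 0.94 to 1.75 for Smarca4, neither with a change of sign. Cdkn1c ranged from -0.12 to 1.32, with -0.08 without replicate 1 and -0.12 without replicate 1 of siBRG1. Ckm ranged from -0.34 to 1.64, with -0.34 without replicate 2 and -0.22 without replicate 2 of siBRG1. Both were at background on at least 2 of the 4 arrays, and the cause was not tested. The sarcomere median ranged from 0.18 to 0.59 and the antigen presentation median from -0.73 to -0.35 over the alternatives. The lists over detected members, each replicate alone and the values held at the detection limit were chosen after seeing the data.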
